A study of Homo sapiens with 6 samples.

Results

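HSPA5, NUPR1, ATF3, EGR1 and DUSP4 are 5 stress- and signal-responsive genes, considered here among the 1998 genes that the authors' deposited table lists as changed after H19 knockdown. They were chosen by name and selected on their listed response in that same comparison, so their fold changes are a description and carry no test of their own. RNA came from HepG2, a human liver cancer line with many hepatocyte functions, transfected with an siRNA against H19 (siH19, 3 libraries) or with a control siRNA (siCon, 3 libraries). H19 is a long noncoding RNA of an imprinted locus. Cells of both groups were harvested after 48 h in the same medium with serum, and ribosomal RNA was depleted from total RNA before sequencing. Nothing in the submitters' labels tells whether the 3 libraries of a group are separate cultures, so the authors' errors and p-values may cover technical spread alone. The level of H19 itself was not analysed here, and how far the siRNA lowered it is therefore not known.

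The endoplasmic reticulum (ER) folds secreted and membrane proteins, and a hepatocyte-like cell sends much of its protein output through it. When unfolded protein builds up there, the unfolded protein response (UPR) acts through the sensors ATF6, IRE1 and PERK: it raises chaperones such as BiP, the product of HSPA5, and slows translation through phosphorylated eIF2 alpha, which favours the transcription factor ATF4 and its targets, among them ATF3 and NUPR1. Immediate early genes such as EGR1 are switched on within minutes by growth factor and MAP kinase (MAPK) signalling, and dual-specificity phosphatases such as DUSP4 turn MAP kinases off again.

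The authors combined the 3 libraries of a group into 1 value, so levels are given per group and the only error is the authors' standard error (SE) of the log2 fold change, siH19 over siCon. The table holds genes with an adjusted p under 0.05, the largest being 0.0498, shared by CTBP1-AS2, MYO1D and TTLL11 just inside it, and genes outside it were not analysed here. Of its genes 1105 (55.3%) were lower and 893 (44.7%) were higher in siH19, with medians of -0.44 and 0.46 on the log2 scale. These shares are the background for every count of lower and higher genes below. For how many genes of a list were listed there is no background, since genes outside the table were not analysed here. Those counts are therefore not response rates. Depth per library is unknown. The mean normalized count had a median of 640 over the listed genes. All 9 listed hepatocyte markers of 10 looked up were lower (median -0.60 on the log2 scale), and they were abundant, at mean normalized counts of 793 to 240657 in the authors' deposited table. The largest of these falls were in the secreted proteins TTR (-0.88), APOH (-0.83), APOB (-0.70), ALB (-0.67) and SERPINA1 (-0.60) in the authors' deposited table. The part of this fall in the results below was not tested. None of 10 white blood cell and 10 fibroblast or endothelial markers was among the genes analysed. In bulk RNA, fewer cells of a type and less RNA per cell cannot be told apart.

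HSPA5, NUPR1 and EGR1 fell and ATF3 and DUSP4 rose in siH19, 3 lower and 2 higher, beside 55.3% lower among all listed genes; nothing is read from that share, since the genes were chosen on this contrast. The chaperone changed least, 1.23-fold, and the other 4 changed between 1.72-fold and 1.83-fold in the authors' deposited table. NUPR1 and ATF3 stood at opposite ends of the ATF4-axis list, and EGR1 and DUSP4 moved in opposite directions among genes of MAPK output.

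**Figure D1:**
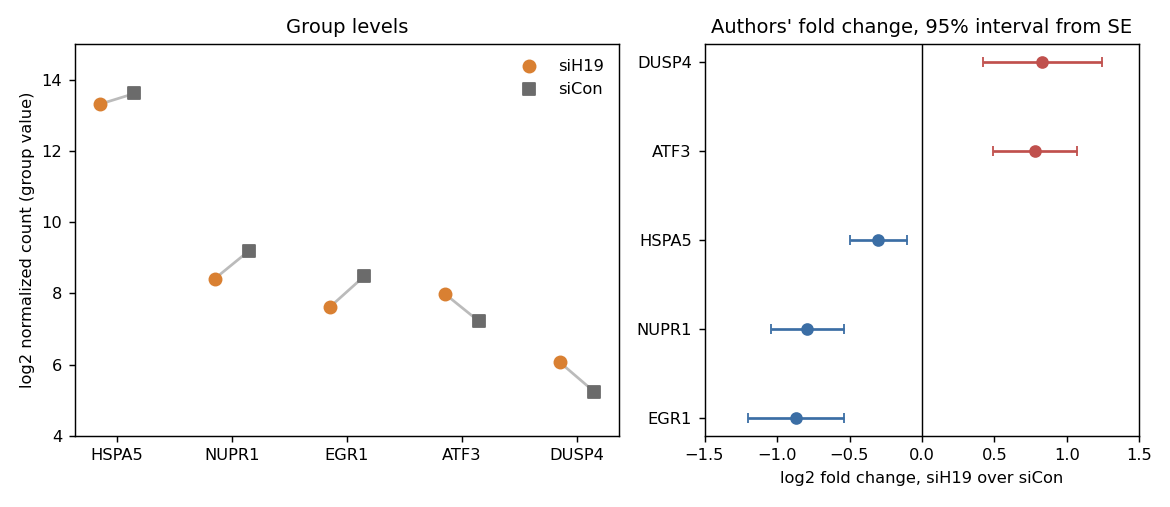
Left, group level of each gene as log2 normalized count, siH19 (circles) and siCon (squares), 1 combined value per group with no error of its own. Right, the authors' log2 fold change, siH19 over siCon, with bars for the 95% interval computed from the authors' SE; 3 genes lie left of 0 and 2 lie right of it.

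HSPA5 encodes BiP (GRP78), the Hsp70 chaperone of the ER lumen. It also holds the UPR sensors inactive in unstressed cells. In the authors' deposited table its normalized count was 10156 in siH19, against 12503 in siCon. The log2 fold change of -0.30 ± 0.10 (SE) in the authors' deposited table is a fall to 81.2% of the siCon level, with a 95% interval of -0.50 to -0.10 and an adjusted p of 0.0271. This was the weakest call of the 5, as 16.2% of listed genes had a larger adjusted p in the authors' deposited table. In normalized counts, siH19 minus siCon, its difference of -2347 was the largest of the 5. HSPA5 ranked 35th by mean normalized count and 1667th by size of change among the 1998 genes of the authors' deposited table. Of 81 listed genes within 2-fold of its mean count (itself included), 49 had a larger change, and their median SE was 0.08. Nearest to it in the plane of log2 fold change and log2 mean count were CP (ceruloplasmin), at -0.30 ± 0.09, and UGDH, at -0.27 ± 0.08, in the authors' deposited table.

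The region before the HSPA5 start is shown because it holds an ER stress response element (ERSE). ATF6 and XBP1 use this type of site with NF-Y. It is written here as CCAAT and CCACG with 9 bases between them. In the RefSeq sequence of GRCh38.p14, minus strand, chr9:125241344-125241593, capitals mark 1 exact ERSE match and 1 cAMP response element core (CRE core, TGACG). The ERSE match lies at -66 to -48 counted in bases from the transcript start. CCAAT boxes at -99 to -95 and -188 to -184 were not followed by CCACG at this spacing. Looser spellings of the ERSE were not searched. These coordinates belong to the printed sequence, whereas the submitters' processing notes name hg19.
HSPA5: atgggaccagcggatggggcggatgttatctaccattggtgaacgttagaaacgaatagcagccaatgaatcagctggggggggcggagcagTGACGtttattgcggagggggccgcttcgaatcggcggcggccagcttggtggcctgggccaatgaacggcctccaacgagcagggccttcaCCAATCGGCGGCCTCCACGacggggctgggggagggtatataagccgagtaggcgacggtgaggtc

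An ERSE on either strand in the 250 bases before a RefSeq start was found in 25 of 27305 genes (0.0916%), and 6 of these 25 were in the authors' deposited table. In siH19 all 6 were lower (median -0.32 on the log2 scale), where 55.3% of all listed genes were; HSPA5 and 3 others of the 6 belong to the chaperone list below, so the counts are not separate evidence. They were CANX, HSP90B1, HSPA5, PDIA6, SERP1 and XBP1, and the matches are printed because these genes share the element and the direction. Capitals mark the fixed letters, and HSP90B1 alone of the 25 genes had a second exact match.
HSPA5: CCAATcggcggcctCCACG
HSP90B1 (farther from the start): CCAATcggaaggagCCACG
HSP90B1 (nearer to the start): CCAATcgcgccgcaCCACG
CANX: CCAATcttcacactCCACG
PDIA6: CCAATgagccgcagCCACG
XBP1: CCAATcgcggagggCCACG
SERP1: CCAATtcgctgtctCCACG
In the authors' deposited table the fold changes were -0.55 ± 0.08 for SERP1, which protects membrane proteins during ER stress, -0.40 ± 0.08 for the lectin chaperone CANX and -0.33 ± 0.12 for HSP90B1, the ER member of the Hsp90 family. PDIA6, a disulfide isomerase, had -0.26 ± 0.07 and XBP1, a UPR transcription factor, -0.28 ± 0.08 in the authors' deposited table. The site upstream of SERP1 is shared with the divergent gene EIF2A, which was not analysed here. On GRCh38.p14 the HSP90B1 matches lie at chr12:103930216-103930234 (plus strand) and chr12:103930321-103930339 (minus), and that of HSPA5 at chr9:125241391-125241409 (minus). CANX has its match at chr5:179698778-179698796 (plus), PDIA6 at chr2:10812853-10812871 (minus), XBP1 at chr22:28800603-28800621 (minus) and SERP1 at chr3:150546710-150546728 (plus). Of 18 chaperone genes with a window that were not listed, CALR, CRELD2 and ERO1B held an ERSE. A match is a string of letters in this window and says nothing of binding in these cells.

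The rest of the ER folding machinery that was listed went the same way as HSPA5. Of 31 chaperones and folding enzymes 10 were listed and all 10 were lower, with a median of -0.40 and a range of -0.64 to -0.25 in the authors' deposited table. Of 29 genes of ER-associated degradation and translocation 7 were listed and all 7 were lower, with a median of -0.30. Together 17 of 60 symbols were lower and 0 higher, against 55.3% lower among all listed genes. The changes were small: 1 of these 17, TXNDC11, passed 1.5-fold, whereas 563 of the 1998 listed genes did.

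Among the folding enzymes the largest fall was in TXNDC11, a thioredoxin-domain protein of the ER membrane, with 1046 normalized counts in siH19 against 1629 in siCon in the authors' deposited table (-0.64 ± 0.09). MESDC2, which folds LDL receptor family members, had -0.47 ± 0.09 in the authors' deposited table. BiP's own helpers were represented by SIL1, its nucleotide exchange factor (-0.45 ± 0.10), DNAJB9 (-0.43 ± 0.13) and DNAJC3 (-0.25 ± 0.08), both J-domain partners, in the authors' deposited table. ERO1A, which supplies oxidizing power to disulfide isomerases, stood at -0.39 ± 0.12 in the authors' deposited table. The 10 listed genes span mean normalized counts of 316 to 17443 in the authors' deposited table.

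In the degradation and translocation list the authors' deposited table gave -0.51 ± 0.12 for SSR1, a subunit of the translocon-associated complex, and -0.40 ± 0.09 for EDEM1, which delivers misfolded glycoproteins to degradation. VIMP (selenoprotein S) had -0.33 ± 0.11, HERPUD1 had -0.30 ± 0.09 and SEC61A1, the channel subunit, -0.28 ± 0.09 in the authors' deposited table. The fall in HERPUD1 equalled that of HSPA5 to the second decimal. Of 35 cytosolic heat shock and mitochondrial chaperone genes 1 was listed, BAG3 at -0.28 ± 0.10 in the authors' deposited table (adjusted p 0.0447).

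Of 23 UPR sensors and transducers 8 were listed, 6 lower and 2 higher. The largest change was in EIF2S1, which encodes eIF2 alpha itself, with 1038 normalized counts in siH19 against 2091 in siCon in the authors' deposited table. Its log2 fold change was -1.01 ± 0.09 in the authors' deposited table. DDIT3 (CHOP), a stress transcription factor downstream of ATF4, was at -0.42 ± 0.16 in the authors' deposited table, with an adjusted p of 0.0421 near the threshold. CREB3L2, an ER-anchored transcription factor, had -0.51 ± 0.14, and CREBRF, a regulator of the CREB3 family, -0.41 ± 0.15 in the authors' deposited table. The higher pair were MBTPS1, the site-1 protease that cleaves ATF6 (0.47 ± 0.09), and ATF6B (0.32 ± 0.11) in the authors' deposited table. ATF4, ATF6, ERN1 and EIF2AK3 were not analysed here.

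NUPR1 encodes a small, intrinsically disordered chromatin-associated protein that is induced by cell stress and lies downstream of ATF4. Its normalized count was 340.1 in siH19, against 588 in siCon, in the authors' deposited table. The log2 fold change was -0.79 ± 0.13 in the authors' deposited table, 57.8% of the siCon level, with a 95% interval of -1.04 to -0.54. The adjusted p was written as 0, below the smallest printed value of 1e-06. Of the 1105 lower genes 116 fell by more, and among 751 listed genes within 2-fold of its mean count 61 changed by more. PTGR1 (-0.80 ± 0.10) and SLC9B2 (-0.86 ± 0.13) lay nearest to it in the plane of log2 fold change and log2 mean count in the authors' deposited table.

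ATF3 encodes a bZIP transcription factor that is both an ATF4 target and an immediate early gene. The normalized count was 254 in siH19, against 148 in siCon, in the authors' deposited table. This gives 0.78 ± 0.15 on the log2 scale, 172% of the siCon level, with a 95% interval of 0.49 to 1.07 and an adjusted p of 8e-06 in the authors' deposited table. Of the 893 higher genes 106 rose by more. The difference between ATF3 and NUPR1 was 1.57 log2 units, although both are known as ATF4 targets. Nearest to ATF3 in the same plane were IL10RB and CLDN6, both at 0.83 ± 0.14 in the authors' deposited table.

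The region before 1 RefSeq start of ATF3 is shown because of 2 motif matches. It holds 1 match to the spelling of the composite C/EBP-ATF element (TGATGNAA), a type of site that ATF4 uses. The other match is to an ATF site (TGACNTCA). The sequence is the RefSeq region of GRCh38.p14, plus strand, chr1:212565157-212565333, which ends before the first annotated exon base, with both matches in capitals.
ATF3: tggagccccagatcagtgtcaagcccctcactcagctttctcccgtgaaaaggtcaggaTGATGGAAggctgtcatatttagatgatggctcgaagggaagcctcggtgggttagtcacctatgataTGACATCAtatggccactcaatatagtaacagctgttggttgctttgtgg
The first match lies at -191 to -184 and the second at -123 to -116, counted in bases from the RefSeq start of this transcript. Of all 35116 RefSeq windows 3.14% held the first motif and 6.87% the second, on either strand. A second RefSeq window for ATF3, before a start at chr1:212615018, held none of the searched motifs, and which start is used in these cells was not measured. ATF3 starts outside these 2 windows were not searched. Whether ATF4 acts on ATF3 through the printed match was not tested. Among 14 listed ATF4-axis genes with a window, ASNS, ATF3 and JDP2 held the composite element, and all 3 were higher. HERPUD1 of the degradation list held it too and was lower, and over all genes with the element 48 were listed, 28 higher and 20 lower. Among 29 ATF4-axis genes with a window that were not listed, 7 held it.

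Of 52 symbols of the ATF4-axis list 16 were listed, 10 higher and 6 lower in siH19, with a median of 0.29. The share lower was 37.5%, with an exact binomial 95% interval of 15.2 to 64.6% that holds the 55.3% of all listed genes. NUPR1 was the lowest and ATF3 the highest of the 16. Next to ATF3 came JDP2, a bZIP repressor related to ATF3, at 0.63 ± 0.15, and then PHGDH, the first enzyme of serine synthesis, at 0.48 ± 0.14 in the authors' deposited table. SQSTM1 (p62), an autophagy receptor, was lower with NUPR1, at -0.49 ± 0.09 in the authors' deposited table.

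Grouped after the values were seen, 11 of the 31 ATF4-axis symbols for amino acid supply and tRNA charging were listed, 8 higher and 3 lower, with a median of 0.30. The authors' deposited table gave 0.46 ± 0.10 for ASNS, asparagine synthetase, 0.47 ± 0.09 for the neutral amino acid transporter SLC1A4 and 0.29 ± 0.08 for MTHFD2 of mitochondrial folate metabolism. The tRNA synthetases MARS, CARS and TARS stood at 0.35 ± 0.09, 0.34 ± 0.10 and 0.23 ± 0.08 in the authors' deposited table. The 3 lower ones were the cystine transporter SLC7A11 (-0.43 ± 0.08), the tRNA exporter XPOT (-0.31 ± 0.08) and ALDH18A1 of proline synthesis (-0.22 ± 0.07) in the authors' deposited table. Of the other 21 symbols 5 were listed, with NUPR1, SQSTM1 and DDIT3 lower and ATF3 and JDP2 higher. TRIB3, CHAC1, DDIT4 and SESN2, which are often read as ATF4 reporters, were not analysed here.

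NUPR1 also takes part in the control of autophagy with lysosomal genes. Of 26 symbols of that list, NUPR1 included, 6 were listed, 4 lower and 2 higher. ULK1, the kinase that starts autophagy, was at 0.78 ± 0.17 in the authors' deposited table, with 153 normalized counts in siH19 against 89.3 in siCon. The mitophagy receptor BNIP3, also a hypoxia target, had -0.69 ± 0.10 in the authors' deposited table. NBR1 and WIPI1, an autophagy receptor and a phagophore protein, were at -0.29 ± 0.10 and -0.28 ± 0.09 in the authors' deposited table.

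**Figure D2:**
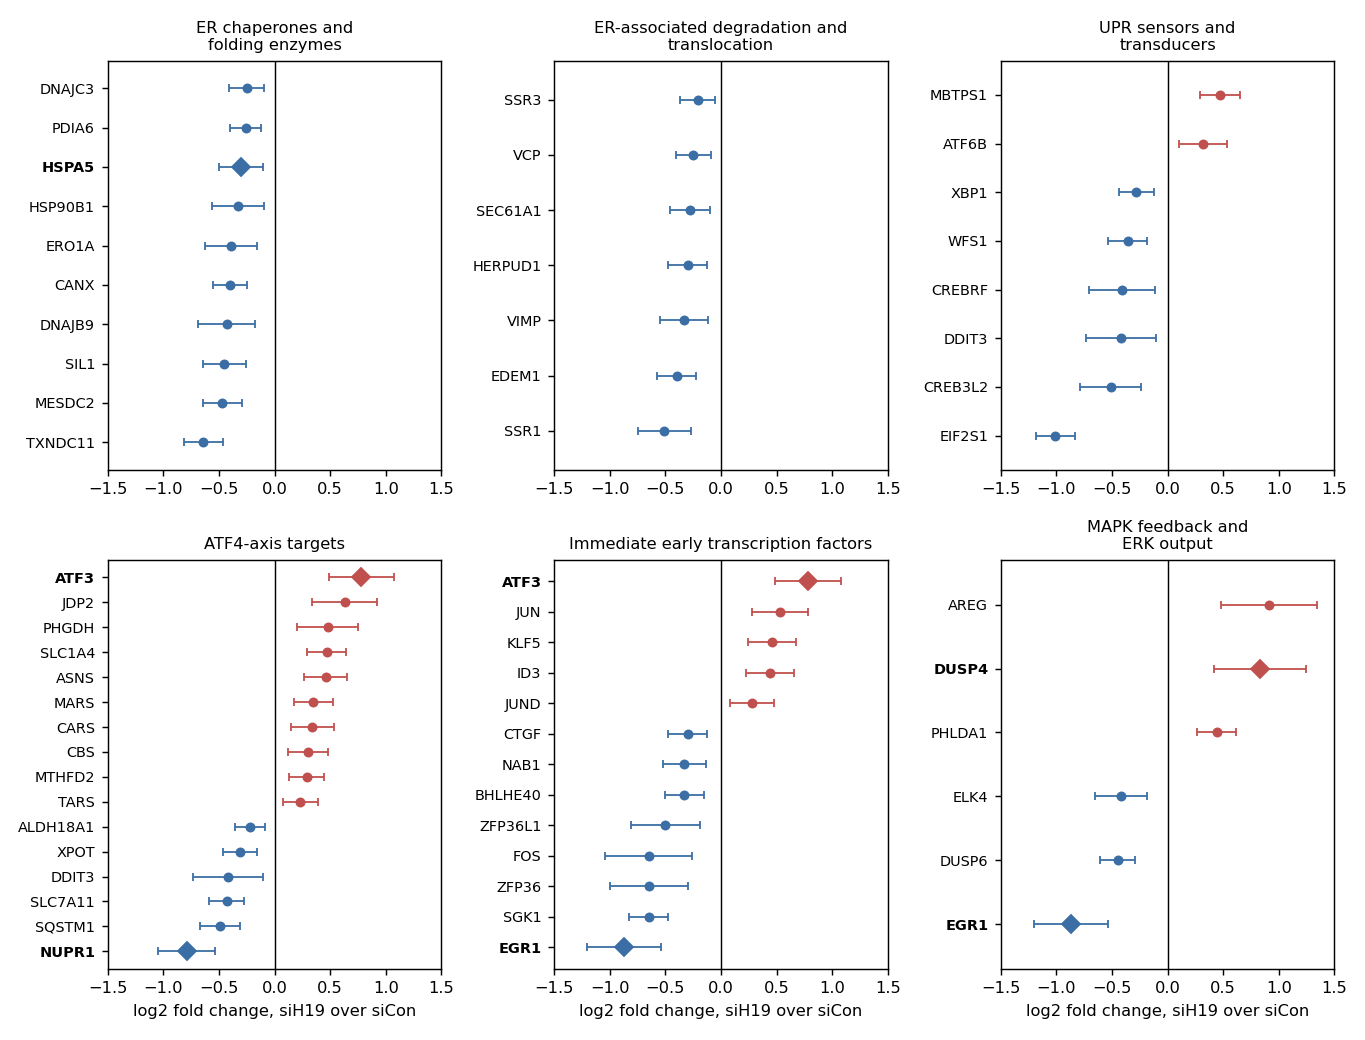
Log2 fold change, siH19 over siCon, of each listed gene of 6 gene lists, with bars for the 95% interval computed from the authors' SE; diamonds and bold names mark the 5 genes. The chaperone and degradation lists lie wholly left of 0, the ATF4-axis list has 10 genes right and 6 left of it, and ATF3 and EGR1 are the ends of the immediate early list.

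EGR1 encodes a zinc finger transcription factor that is the classic early readout of ERK signalling to serum response factor. Its normalized count was 195 in siH19, against 357 in siCon, in the authors' deposited table. The log2 fold change of -0.87 ± 0.17 in the authors' deposited table is 54.7% of the siCon level, with a 95% interval of -1.20 to -0.54 and an adjusted p of 1.6e-05. It was the largest relative change of the 5 genes, ranked 153rd by size among the 1998, and 87 of the 1105 lower genes fell by more. TNS2 (-0.80 ± 0.12) and AVPI1 (-0.75 ± 0.13) lay nearest to it in level and change in the authors' deposited table.

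The EGR1 promoter is shown for its CArG boxes (CC, 6 A or T bases, GG), the sites of serum response factor, which carry the ERK response. The RefSeq region of GRCh38.p14 is chr5:138465229-138465478, plus strand, and capitals mark 2 CArG boxes and 2 CRE cores (TGACG, on the other strand).
EGR1: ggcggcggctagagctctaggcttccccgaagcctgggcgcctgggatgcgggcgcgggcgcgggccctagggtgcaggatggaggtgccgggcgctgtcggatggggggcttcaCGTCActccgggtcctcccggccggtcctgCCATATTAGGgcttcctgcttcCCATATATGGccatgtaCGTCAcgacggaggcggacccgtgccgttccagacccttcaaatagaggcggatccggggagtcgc
The CArG boxes lie at -105 to -96 and -83 to -74, counted in bases from the transcript start. A CArG box occurred in 1.16% of the 35116 RefSeq windows and 2 or more occurred in 0.0313%, while 2 or more CRE cores occurred in 4.76%. EGR1 was the only 1 of 13 listed immediate early genes with a CArG box in its window, and EGR2 and SRF held one among 26 that were not listed. Only the 250 bases before a start were searched, so a gene without a match here, FOS included, may hold a CArG box farther upstream. Of 394 genes with a CArG box 26 were in the authors' deposited table, 14 lower and 12 higher, close to the 55.3% lower of all listed genes.

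**Figure D3:**
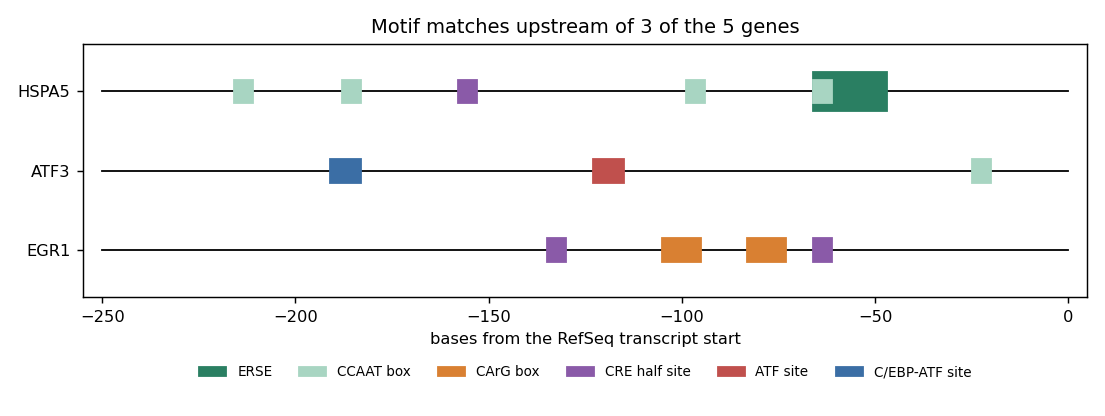
Positions of motif matches on either strand in the 250 bases before the RefSeq transcript start of HSPA5, ATF3 (first window) and EGR1; the x axis is the distance in bases from the start. CCAAT boxes, on either strand, are drawn too. HSPA5 holds its exact ERSE match near the start, ATF3 the C/EBP-ATF and ATF sites, and EGR1 both CArG boxes.

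Of 50 immediate early symbols 13 were listed, 8 lower and 5 higher, with a median of -0.33, and the 61.5% lower is near the 55.3% of all listed genes. EGR1 was the lowest of the 13 and ATF3 the highest, 1.65 log2 units apart. On EGR1's side the authors' deposited table gave -0.65 for each of FOS (SE 0.20), ZFP36 (SE 0.18) and SGK1 (SE 0.09): an AP-1 subunit, an RNA-binding protein that speeds decay of AU-rich messages and a serum-induced kinase. FOS had 41.6 normalized counts in siH19 against 65.3 in siCon in the authors' deposited table. NAB1, a corepressor of EGR proteins, was lower too, at -0.33 ± 0.10 in the authors' deposited table.

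On ATF3's side stood JUN (0.53 ± 0.13), the AP-1 subunit with which ATF3 can dimerize, KLF5 (0.46 ± 0.11), ID3 (0.44 ± 0.11) and JUND (0.28 ± 0.10) in the authors' deposited table. Grouped after the values were seen, 5 of 12 bZIP genes of the AP-1 and MAF families were listed, and 4 of them, ATF3, JDP2, JUN and JUND, were higher, with FOS the lower one.

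DUSP4 (MKP-2) encodes a nuclear phosphatase that removes activating phosphates from ERK, JNK and p38 and is itself induced by ERK signalling. Its normalized count was 67.2 in siH19, against 37.8 in siCon, in the authors' deposited table, the lowest level of the 5 genes. The log2 fold change was 0.83 ± 0.21 in the authors' deposited table, 178% of the siCon level, with a 95% interval of 0.42 to 1.24 and an adjusted p of 0.000981. With normalized counts taken as read counts, counting error alone would give DUSP4 an SE of 0.169 for 3 libraries a group. The stated SE is 0.21. For HSPA5 counting error would give 0.011, beside a stated SE of 0.10. Over all listed genes the largest stated SE was 0.22, although mean normalized counts went down to 12.3. Whether the authors adjusted fold changes or SEs with values of other genes is not stated. Intervals of low-count genes may therefore be too narrow. GDF11 (0.86 ± 0.20) and FLRT2 (0.81 ± 0.20) lay nearest to DUSP4 in the authors' deposited table.

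Its close relative DUSP6 (MKP-3), an ERK-specific cytoplasmic phosphatase and a common readout of ERK activity, went the other way, with 3281 normalized counts in siH19 against 4513 in siCon in the authors' deposited table (-0.45 ± 0.08). Grouped after the values were seen, 12 DUSP genes had 2 that were listed, DUSP4 and DUSP6. In the list of MAPK feedback and ERK output 6 of 40 symbols were listed, 3 higher and 3 lower. This split depends on the threshold: 1 was higher and 3 were lower (75.0% lower) at a mean normalized count of at least 100, which drops AREG and DUSP4, and 2 were higher and 1 was lower (33.3% lower) among changes of at least 1.5-fold. The EGFR ligand AREG was at 0.91 ± 0.22 in the authors' deposited table, with a mean normalized count of 17.7. PHLDA1, an ERK-induced gene, had 0.44 ± 0.09 and ELK4, a partner of serum response factor, -0.42 ± 0.12 in the authors' deposited table. EGR1, DUSP6 and ELK4 were thus the lower members, and AREG, DUSP4 and PHLDA1 the higher ones.

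Of 68 symbols of the MAPK cascade list 12 were listed, 6 higher and 6 lower, near the 55.3% lower of all listed genes. EGFR, a receptor that feeds ERK signalling, was at -0.69 ± 0.11 in the authors' deposited table, with 410.1 normalized counts in siH19 against 662 in siCon. RASA2, a Ras GTPase activating protein, had -0.56 ± 0.12 and the ERK-activated kinase RPS6KA3 -0.41 ± 0.08 in the authors' deposited table. MRAS, a Ras-family GTPase, had 0.57 ± 0.14 and the adaptor SHC1 0.43 ± 0.09 in the authors' deposited table. Phosphorylation was not measured, so these levels give no reading of kinase activity.

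**Figure D4:**
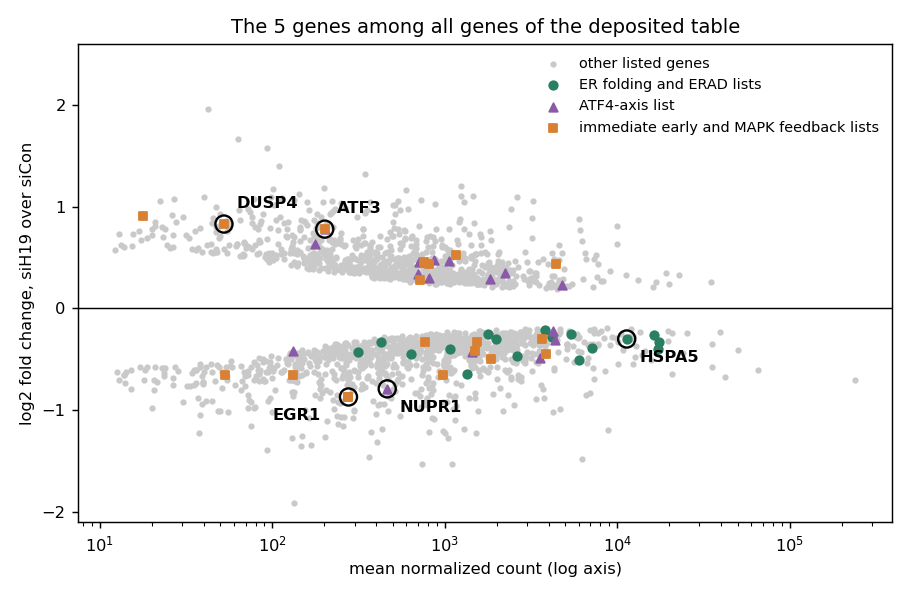
Log2 fold change, siH19 over siCon, against mean normalized count (log axis) for all 1998 genes of the authors' deposited table, with gene lists in colour and the 5 genes circled. The empty band around 0 reflects that called genes only are listed; DUSP4, ATF3, EGR1 and NUPR1 lie below a mean count of 640, and HSPA5 lies at 11355 near the band's edge.

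Levels can be compared between genes only per length, and the annotated transcripts of 3 of the 5 differ widely. HSPA5 had 2599 normalized counts per kb of exon in siH19 and 3199 in siCon, far above the others for any transcript. EGR1 had 62.3 per kb in siH19, against 114 in siCon. NUPR1 lay between 61.9 and 618 per kb in siH19 and between 107 and 1069 in siCon, depending on whether its 5.49 kb or 0.55 kb coding transcript is taken. ATF3 lay between 125 and 527 per kb in siH19 and between 72.8 and 307 in siCon, for coding transcripts of 2.03 to 0.48 kb. DUSP4 was lowest, between 12.1 and 22.7 per kb in siH19 and between 6.8 and 12.8 in siCon. The order of NUPR1, ATF3 and EGR1 therefore depends on the transcript taken, and no spread over libraries was given to compare neighbours. No gene annotated in GENCODE release 29 overlaps any of the 5.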

How the data were processed

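Libraries were strand-specific, from rRNA-depleted total RNA, with paired 76-cycle reads, per the labels' protocols. STAR 2.5.0a, Cufflinks 2.2.1 and DESeq2 1.0.0 with build hg19 are named, without roles, per the submitters' processing notes; the annotation and strand setting are not given in the sources used here. Per the file headers, the authors deposited log2 group counts, a log2 fold change with its SE, a mean count (a normalized signal) and a q value (adjusted p-value), for called genes only, with 1 value per group. As checked, the fold change equalled siH19 minus siCon within 0.01.

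The members and the 12 gene lists (377 symbols, 84 of them listed) were chosen with earlier results of these data known. Named are the 5 members, the 5 largest changes per list and the 2 nearest genes per member; other genes were chosen after their values were seen. No test was run, since the members were selected on this contrast. Intervals are 1.96 SE of the authors, and whether these SEs were adjusted with values of other genes is not stated. Libraries may be technical replicates. Promoters came from RefSeq (GRCh38.p14; 3 of 5 members matched, HSPA5, ATF3 and EGR1), transcript lengths from GENCODE 29, and motifs were searched 250 bases before each start on both strands. Counting was tested on simulated data. Python 3.11.15, pandas 2.3.3 and matplotlib 3.10.9 were used.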

Additional observations from a re-analysis of the deposited data

How the results depend on the processing

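Across 17 results 71 alternative values were computed. A reversal could be recorded for the fold changes of the 5 genes only. It was found for 0 of them, but their alternatives lay within 0.01 of the main value and could not have reversed it. For a list's share lower, a value inside the exact binomial 95% interval of the main share was taken as not moved, and these intervals are wide: the MAPK feedback list went between 75.0% (mean count at least 100) and 33.3% (1.5-fold) around 50.0%, and the immediate early list reached 80.0% (1.5-fold) against 61.5%. By these rules 3 values moved. Fold changes of the 5 genes were the same when recomputed from the deposited group values, and moved by 0.01 when recentred on the midpoint of the median rise and fall. At an adjusted p under 0.01 HSPA5 was lost, which left 2 lower genes. With a mean normalized count of at least 100 DUSP4 was lost, which left 1 higher gene. Among genes changed at least 1.5-fold, the share lower was 100% for UPR sensors (EIF2S1 alone) and 100% for the MAPK cascade (EGFR alone), against 75.0% and 50.0% of all listed members, with fewer genes counted. At that size the ER chaperone list held 1 gene and the degradation list 0, so no value could be given for the second. No paired analysis was possible because the table holds 1 combined value per group, and no library could be left out for the same reason. Genes outside the authors' threshold were not analysed here, so a list's counts cover its called members only.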

Other observations

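A pair of 7-base words of the 3' untranslated region was looked up in the 5 genes and their lists. All annotated coding transcripts of 1881 listed genes were searched. CATCAAA was held by 430 genes (22.9%), 299 of them lower in siH19. GCAGTAC was held by 235 genes (12.5%), 48 of them lower. Over all 1998 listed genes 55.3% were lower, so holders of CATCAAA leaned lower and holders of GCAGTAC leaned higher. Among the list genes searched, the longest annotated 3' untranslated region ran from 57 bases (APOA1) to 8721 bases (SSR1). This length was not taken into account. Neither was found in HSPA5, NUPR1, ATF3, EGR1 or DUSP4. None of 9 listed chaperone genes and none of 13 listed immediate early genes searched held CATCAAA. It was found in EIF2S1, CREB3L2 and CREBRF, 3 of the 8 UPR sensors and transducers searched, all lower, and in JDP2, PHGDH, SLC1A4 and SLC7A11 of the ATF4-axis list, of which 1 was lower. CATCAAA was also found in HERPUD1, the 1 holder among 6 degradation list genes searched, which was lower, and in BNIP3 and BECN1 of the autophagy list, of which BNIP3 was lower. In the MAPK cascade list 6 of 12 genes held CATCAAA, EGFR and RASA2 among them, and 4 of the 6 were lower. GCAGTAC was found in KLF5 and MTHFD2, both higher, and in 2 of the 12 MAPK cascade genes, FGFR4 and MAP3K4, of which 1 was lower. These words were picked because of an earlier result on the same fold changes, so the counts are a description, and their part in any fold change was not tested.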
